A study of Mus musculus with 14 samples.

Results

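Cholesterol genes were followed in dentate gyrus tissue with and without the amyloid precursor protein. The 33 genes were chosen by name for their place in cholesterol synthesis, uptake, transport and efflux. No measured value set the choice, but earlier results of these data were known when it was made. All 33 have a row among the 55291 rows of the count tables and all 33 passed the expression filter. RNA with poly(A) tails was sequenced from dentate gyri cut with a scalpel out of mouse entorhino-hippocampal slice cultures, 1 dentate gyrus per library. The 6 wildtype libraries came from C57BL/6J (APP+/+) cultures and the 8 APPko libraries from cultures of APP-deficient (APP-/-) animals. Slices of both genotypes were prepared at postnatal day 4 to 5, kept in the same medium with horse serum, a source of lipoproteins, and matured for at least 18 days without further treatment. The labels name the C57BL/6J background for the wildtype only. The labels call the libraries biological replicates but do not say which cultures shared an animal, so p-values measure the spread between cultures, which may be in part technical.

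Cells make cholesterol from acetyl-CoA through mevalonate, squalene and lanosterol, and the enzymes are induced together when membranes of the endoplasmic reticulum run low in sterol. In that state SCAP carries the transcription factor SREBP2 to the Golgi for activation, whereas the INSIG proteins hold SCAP back when sterol is plentiful. Cholesterol in excess is oxidised to ligands of the liver X receptors, which switch on the exporters ABCA1 and ABCG1 and the ubiquitin ligase IDOL, the product of Mylip, which sends the LDL receptor to degradation. In the brain, astrocytes and oligodendrocytes make most of the cholesterol, and neurons clear theirs mainly through the hydroxylase encoded by Cyp46a1.

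Total counts lay between 16686909 and 29713323 per wildtype library and between 20298058 and 31031126 per APPko library. App, the targeted gene, ran from 679 to 964 CPM (library-size-normalised counts, scaled between libraries by the trimmed mean of M-values, TMM) in wildtype and from 182 to 231 CPM in APPko, so each library matched its label although counts of App remained in APPko. Wildtype libraries 2 and 3 stood apart from the rest, with TMM factors of 0.852 and 0.847 against 0.976 to 1.09 in the other 12. The column headers end in f or m, f in 3 wildtype and 7 APPko libraries and m in 3 wildtype libraries and 1 APPko library. Wildtype libraries 2 and 3 are among the 3 wildtype f libraries, so a difference of wildtype f libraries from the others cannot be told apart from these libraries. Beside the larger differences among the 33 genes, the value without these 2 libraries is also given. For genes outside the 33 it is not given.

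Of the 33 genes, Insig1 and Mylip fell in APPko and none rose at an adjusted p under 0.05 over all tested genes (edgeR quasi-likelihood test, Benjamini-Hochberg). Over all genes 2.35% of 22150 tested genes passed, 1.41% lower and 0.944% higher. 16 of the 33 had positive and 17 negative log2 changes. Their median log2 change was -0.018, against -0.013 over all tested genes. 9 of the 33 had an unadjusted p under 0.05, where 20.4% of all tested genes did. The genotypes separated fully in none of the 33 and in 1.12% of all tested genes. With so small a share, none among 33 does not set these genes apart. The 2 calls were close to the threshold, and neither was kept when wildtype libraries 2 and 3 were left out together (adjusted p = 0.29 for Insig1 and 0.23 for Mylip, edgeR).

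**Figure D1:**
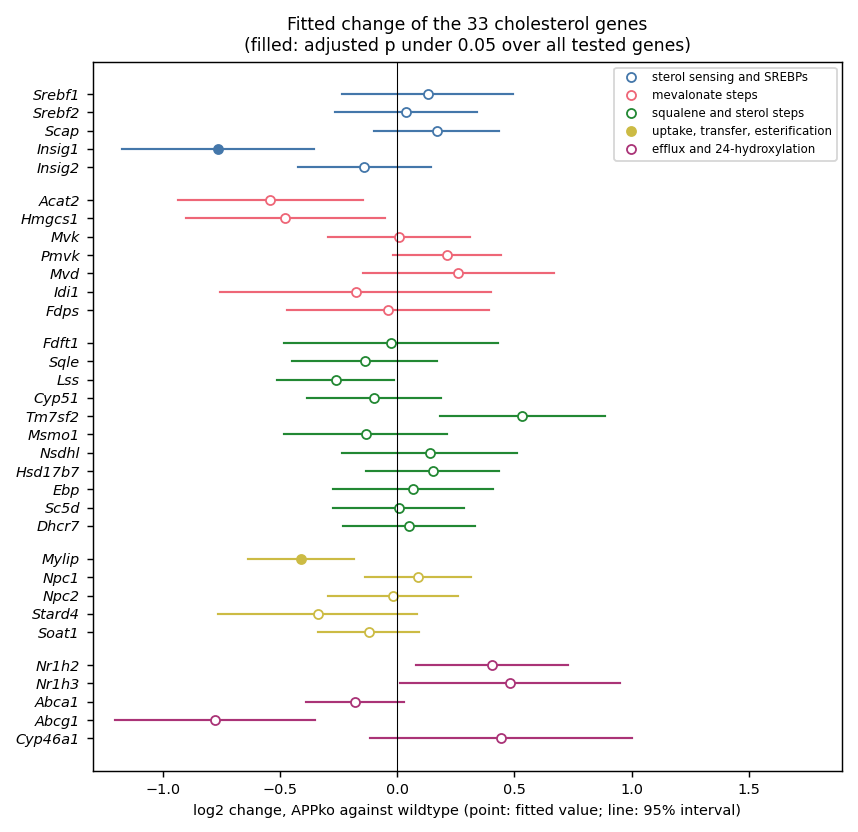
Fitted log2 change of each gene in APPko against wildtype with its 95% interval, in 5 blocks by role, filled where the adjusted p over all tested genes is under 0.05. Insig1 (-0.77) and Mylip (-0.41) are filled, and Abcg1 lies as low as Insig1 (-0.78) but is not filled.

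Among the 5 genes of sterol sensing, Insig1 was lower in APPko and the other 4 did not pass. Insig1 encodes the INSIG protein whose own gene is a target of SREBP2. The activity of that factor was not measured. The gene (ENSMUSG00000045294.11) lies on chromosome 5 from 28071363 to 28078662 (GRCm38). Its level was 38.3 CPM in the lowest, 80.9 CPM in the median and 105 CPM in the highest wildtype library. In APPko the lowest, median and highest were 31.5, 44.5 and 61.2 CPM. All 8 APPko libraries lay below the wildtype mean and 4 of 6 wildtype libraries above every APPko library, but the groups overlapped. The means were 75.4 ± 25.5 CPM (SD, n = 6) and 44.3 ± 9.99 CPM (SD, n = 8), a 1.70-fold lower level in APPko (log2 change -0.77, SE 0.20, edgeR adjusted p = 0.047). Among f libraries the means were 93.7 ± 12 CPM in wildtype (n = 3) and 43.3 ± 10 CPM in APPko (n = 7). Among m libraries the wildtype mean was 57 ± 22 CPM (n = 3) and the single APPko library had 51.2 CPM. Without wildtype libraries 2 and 3 the log2 change was -0.58, and over the 14 fits that left out 1 library it ran from -0.90 to -0.65 and passed in 2 (without wildtype library 4 or 5).

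The paralogue Insig2, which is not under the same SREBP2 control, ran from 87.1 to 174 CPM in wildtype with a median of 115 CPM. In APPko it ran from 98.6 to 121 CPM with a median of 107 CPM (log2 change -0.14, edgeR adjusted p = 0.60). The APPko libraries lay inside the wildtype range. Scap, the escort of SREBP2, had a lowest, median and highest level of 23.1, 27.6 and 40.6 CPM in wildtype. The same values in APPko were 29.0, 31.9 and 39.3 CPM (log2 change 0.17, 95% interval -0.10 to 0.44), again inside the wildtype range, and the log2 change was 0.03 without wildtype libraries 2 and 3. Scap shares 13.2% of its exon bases with 5830462I19Rik on the other strand. Srebf2, the gene of SREBP2 itself, had means of 30.6 ± 8.14 and 31.4 ± 4.38 CPM with a 95% interval of the log2 change from -0.27 to 0.34. Srebf1, the gene of the lipogenic SREBP1, had 11.8 ± 4.29 and 12.9 ± 1.79 CPM (interval -0.24 to 0.50). For both factors the interval included 0, and their processing to the active form was not measured.

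Bases upstream of 3 of the genes are shown for the 2 genes that passed and for Hmgcs1, the synthesis gene with which the others are compared. They come from RefSeq windows on GRCm38.p6 of 250 bases before to 50 bases after each gene start and stop before the annotated start of the gene. Windows were found for 27 of the 33 genes (36 windows). Abcg1, Fdft1, Fdps, Npc1, Sqle and Stard4 had none. All 3 are on the plus strand, written 5′ to 3′, and lie at chr5:28071162-28071362 (Insig1), chr13:119690101-119690350 (Hmgcs1) and chr13:45389492-45389741 (Mylip). Capitals mark matches to TCACNCCAC (a form of the sterol regulatory element bound by SREBPs), CCAAT (the box bound by NF-Y) and GGGCGG (the GC box bound by Sp1), each searched on both strands.
Insig1: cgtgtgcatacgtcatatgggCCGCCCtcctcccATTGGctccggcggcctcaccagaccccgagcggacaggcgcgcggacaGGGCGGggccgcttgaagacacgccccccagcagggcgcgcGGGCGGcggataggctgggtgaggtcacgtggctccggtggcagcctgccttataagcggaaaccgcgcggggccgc
Hmgcs1: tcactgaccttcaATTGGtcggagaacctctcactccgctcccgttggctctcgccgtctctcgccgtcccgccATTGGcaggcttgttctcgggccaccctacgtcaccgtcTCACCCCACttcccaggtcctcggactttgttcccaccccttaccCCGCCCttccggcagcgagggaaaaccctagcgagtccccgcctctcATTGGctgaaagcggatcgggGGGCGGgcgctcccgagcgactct
Mylip: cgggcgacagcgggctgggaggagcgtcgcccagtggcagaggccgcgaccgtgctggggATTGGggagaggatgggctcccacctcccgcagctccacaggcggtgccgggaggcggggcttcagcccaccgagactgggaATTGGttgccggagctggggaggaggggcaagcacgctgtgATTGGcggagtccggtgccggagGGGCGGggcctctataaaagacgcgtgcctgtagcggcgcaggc

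The Hmgcs1 bases held 1 match to the sterol regulatory element, whose first base lies 137 bases before the start that RefSeq annotates, with 3 CCAAT boxes and 2 GC boxes. The Insig1 bases held 1 CCAAT box and 3 GC boxes, and the Mylip bases 3 CCAAT boxes and 1 GC box. The sterol regulatory element letters were in 1.24% of all 32851 windows and in 1 of the 36 windows of these genes. CCAAT was in 37.4% of all windows, in 23 of the 36 and in 14 of 18 windows of synthesis genes. GGGCGG was in 35.7% of all windows, in 28 of the 36 and in 15 of the 18. A match describes letters only, and a window without one says nothing about binding there.

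None of the 18 enzymes of synthesis passed the test. Their median log2 change was -0.010, with 9 positive and 9 negative values. Their summed level was 1002 ± 208 CPM in wildtype (SD, n = 6, range 747 to 1296) and 892 ± 184 CPM in APPko (SD, n = 8, range 628 to 1166). In bulk tissue, fewer cells of a type and less RNA per cell cannot be told apart. The enzymes differed widely in level: per kilobase of annotated exon, Hmgcs1 stood highest of the 33 genes at 60.9 ± 20 CPM per kb in wildtype and Fdps lowest at 0.43 ± 0.090 CPM per kb. The level of Fdps is uncertain: it shares exon bases with another gene, and the treatment of multi-mapping reads is not given.

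**Figure D2:**
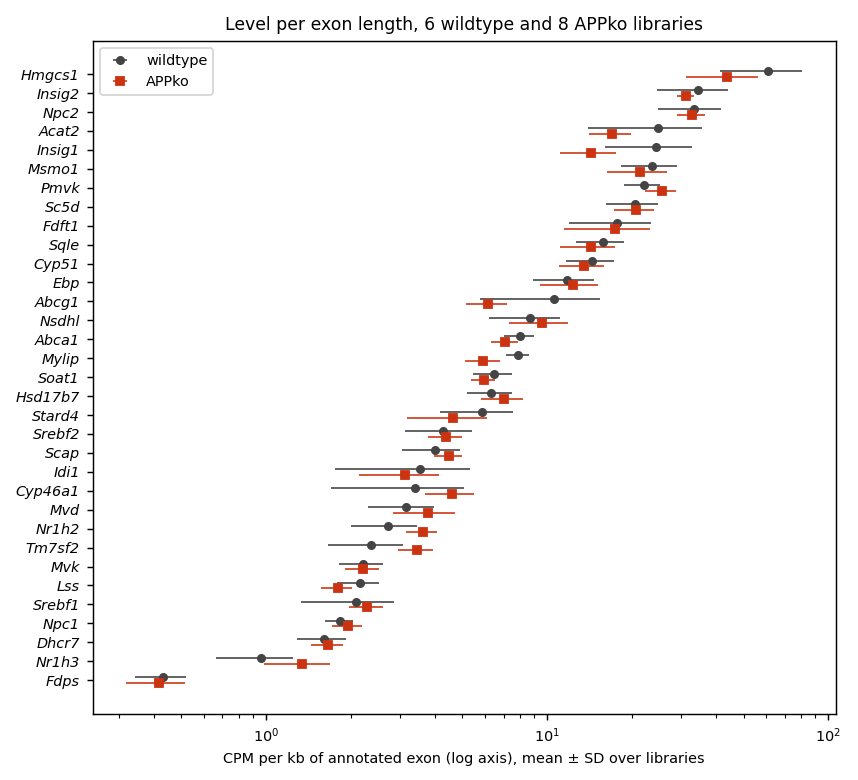
Mean level of each gene in CPM per kilobase of annotated exon on a log axis, with the SD over 6 wildtype (circles) and 8 APPko (squares) libraries. Hmgcs1 is at the top (60.9 in wildtype, 43.7 in APPko) and Fdps, whose level is uncertain, at the bottom (0.43 and 0.42). Many neighbours in the order lie within each other's SD.

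Of the 7 mevalonate enzymes, those at the entry had the lowest log2 changes. Acat2, the cytosolic thiolase of the first step, had a lowest, median and highest level of 42.2, 53.8 and 116 CPM in wildtype and of 33, 40.7 and 52.1 CPM in APPko. All 8 APPko libraries lay below the wildtype mean, and 4 of them below every wildtype library. The log2 change was -0.54 (SE 0.19, edgeR adjusted p = 0.12), and it was -0.26 without wildtype library 3, which held the highest value, and -0.18 without libraries 2 and 3. Hmgcs1, the HMG-CoA synthase (chromosome 13, 119690379 to 119708260, GRCm38), ran from 172 to 381 CPM in wildtype with a median of 287 CPM and from 139 to 288 CPM in APPko with a median of 186 CPM. The means were 280 ± 91.1 and 201 ± 57.7 CPM (log2 change -0.48, SE 0.20, edgeR adjusted p = 0.19), and the log2 change was -0.28 without wildtype libraries 2 and 3. Hmgcs1 shares 12.1% of its exon bases with Gm48342 on the other strand.

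Hmgcs1 divided the wildtype libraries by their header suffix. The 3 wildtype f libraries had 381, 351 and 350 CPM and the 3 m libraries 199, 172 and 223 CPM. In APPko the 7 f libraries ran from 139 to 278 CPM and the m library had 288 CPM, the highest of the genotype. The interaction of genotype and suffix was 1.48 on the log2 scale (edgeR adjusted p = 0.036), which 1.86% of tested genes passed. Hmgcs1 was the only one of the 33 to pass it. The term rests on a single APPko m library and on a wildtype f group that includes libraries 2 and 3. The division of wildtype by suffix was not particular to Hmgcs1. Among others, Sqle, Cyp51 and Msmo1 were also higher in every wildtype f than in every wildtype m library. Tm7sf2, Npc1, Nr1h2, Nr1h3 and Cyp46a1 were lower in every wildtype f library.

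Pmvk, the phosphomevalonate kinase, had the third smallest p of the group. It ran from 30.3 to 44.1 CPM in wildtype with a median of 39.5 CPM and from 37.8 to 54.0 CPM in APPko with a median of 42.4 CPM. None of the 8 APPko libraries lay below the wildtype mean of 37.7 CPM (log2 change 0.21, 95% interval -0.02 to 0.44). Mvk and Mvd, the kinase and decarboxylase on either side of it, had 5.91 ± 1.06 and 5.84 ± 1.54 CPM in wildtype and 5.94 ± 0.81 and 7.00 ± 1.74 CPM in APPko. Idi1, the isomerase, ran from 6.24 to 21.3 CPM in wildtype and had 11 ± 3.5 CPM in APPko. Fdps, the farnesyl diphosphate synthase, had 26 to 58 counts per library. It shares 26.7% of its exon bases with Gm43738 on the same strand, so its level is uncertain.

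Of the 11 enzymes from squalene onwards, Tm7sf2, a sterol reductase, had the highest log2 change and Lss, the lanosterol synthase, the lowest. Tm7sf2 had 6.43, 10.7 and 14.1 CPM in the lowest, median and highest wildtype library and 11.6, 15.6 and 18.6 CPM in APPko. No APPko library lay below the wildtype mean and 6 of 8 lay above every wildtype library. The log2 change was 0.53 (SE 0.17, edgeR adjusted p = 0.086) and fell to 0.38 without wildtype libraries 2 and 3 and to 0.35 with a trend over transcript GC content removed. Tm7sf2 shares 12.1% of its exon bases with Vps51 on the same strand. Lss ran from 18.6 to 29.5 CPM in wildtype with a median of 22.9 CPM and from 15.6 to 23.9 CPM in APPko with a median of 19.4 CPM (log2 change -0.26, edgeR adjusted p = 0.22). For Lss 7 of 8 APPko libraries lay below the wildtype mean.

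Hsd17b7, a ketoreductase of the demethylation steps, ran from 25.5 to 39.1 CPM in wildtype (median 32.5 CPM) and from 24.1 to 43.8 CPM in APPko (median 36.2 CPM, log2 change 0.15). Squalene epoxidase, encoded by Sqle and a controlled step of the pathway, had 87.3 ± 17 and 79.3 ± 17.5 CPM (log2 change -0.14, 95% interval -0.45 to 0.17). The squalene synthase gene Fdft1 had 72.8 ± 23.7 and 71.5 ± 24.2 CPM, and 18.8% of its exon bases overlap Ctsb on the other strand. The demethylase genes Cyp51 (63.8 ± 12.2 and 59.6 ± 10.8 CPM) and Msmo1 (145 ± 32.7 and 132 ± 31.6 CPM) also had intervals that included 0. Sc5d, a desaturase of the last steps, had 99.9 ± 20.9 and 100 ± 16.0 CPM with an interval from -0.27 to 0.29. Dhcr7, the final reductase of its branch, had 9.34 ± 1.82 and 9.67 ± 1.22 CPM with an interval from -0.23 to 0.33. Nsdhl and Ebp lie on the X chromosome, where the f and m libraries could differ. Xist, also on that chromosome, ran from 85.7 to 208 CPM in f and from 1.08 to 2.22 CPM in m libraries. The labels do not say what the suffix means. Nsdhl had 26.4 ± 7.1 and 26.1 ± 6.0 CPM in wildtype and APPko f libraries, and Ebp 31.4 ± 6.9 and 27.2 ± 6.2 CPM. In wildtype m libraries the means were 23.0 ± 7.8 CPM for Nsdhl and 23.0 ± 3.0 CPM for Ebp, and the single APPko m library had 35.4 and 36.9 CPM. For Ebp the APPko value was thus lower than the wildtype mean among f libraries and higher among m libraries, and its interaction did not pass.

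**Figure D3:**
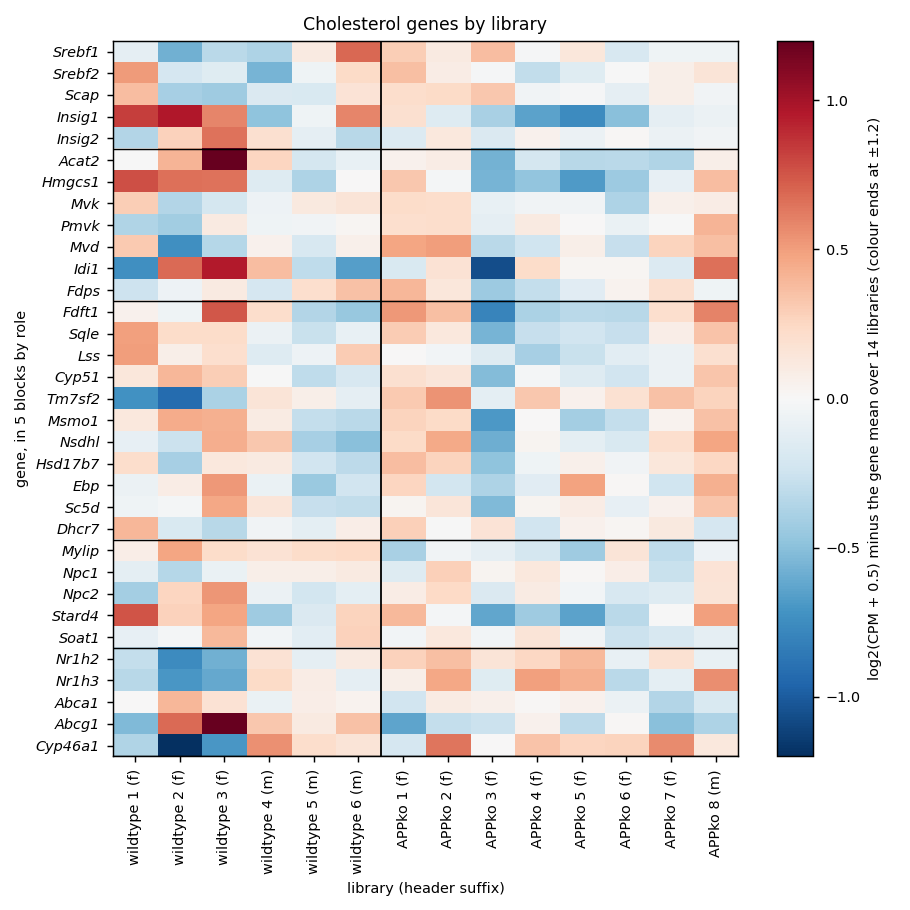
Level of each gene in each library as log2(CPM + 0.5) minus the mean of the gene over 14 libraries, in 5 blocks by role, wildtype left and APPko right of the vertical line. The summed level of the synthesis genes is lowest in APPko library 3 (628 CPM), and Hmgcs1 is high in wildtype libraries 1, 2 and 3.

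Synthesis genes varied together between cultures of one genotype. Over the 8 APPko libraries, log2(CPM + 0.5) of Hmgcs1 was compared with each of the other 32 genes, a comparison added after the data were seen. 13 of the 32 had a Pearson r above 0.7, where 3.31% of all tested genes did. 7 of these are among the 11 enzymes from squalene onwards. The closest was Stard4, a cytosolic sterol carrier that SREBP2 also controls (r = 0.99, exact permutation p = 4.96e-05, adjusted 0.0016 over 32 relations, Spearman rho = 0.98, exact permutation p = 0.0004, adjusted 0.013). Without the 2 libraries farthest from the median of Hmgcs1, APPko libraries 8 and 1, r was 0.97, and over the 7 f libraries it was 0.99. Sqle, Fdft1 and Insig1 followed with r = 0.93, 0.93 and 0.91 (each exact permutation adjusted p = 0.021). Their rho values were 0.83, 0.86 and 0.88 (exact permutation adjusted p = 0.055, 0.049 and 0.046). Without libraries 8 and 1 their r values were 0.84, 0.87 and 0.90, and over the f libraries 0.90, 0.91 and 0.95.

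By exact permutation 8 of the 32 relations had an adjusted p under 0.05 for r, and the other 4 were Lss, Msmo1, Srebf2 and Cyp51 (r = 0.85, 0.87, 0.83 and 0.83). Their rho values were 0.93, 0.95, 0.90 and 0.83 (exact permutation adjusted p = 0.024, 0.018, 0.037 and 0.055). Without libraries 8 and 1 these r values were 0.70, 0.80, 0.68 and 0.63, and over the f libraries 0.77, 0.83, 0.86 and 0.75. The genes of the liver X receptor side did not follow Hmgcs1. For Mylip r was -0.0026, for Abca1 -0.60 and for Abcg1 -0.63 (exact permutation adjusted p = 1.00, 0.22 and 0.20), and the rho values were 0.29, -0.48 and -0.55 (exact permutation adjusted p = 0.64, 0.41 and 0.34). Without libraries 8 and 1 these r values were 0.22, -0.40 and -0.40, and over the f libraries -0.17, -0.56 and -0.68. All these values share the libraries and their scaling. In wildtype, Hmgcs1 fell into separate f and m clusters of 3 libraries each, so no correlation is given.

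**Figure D4:**
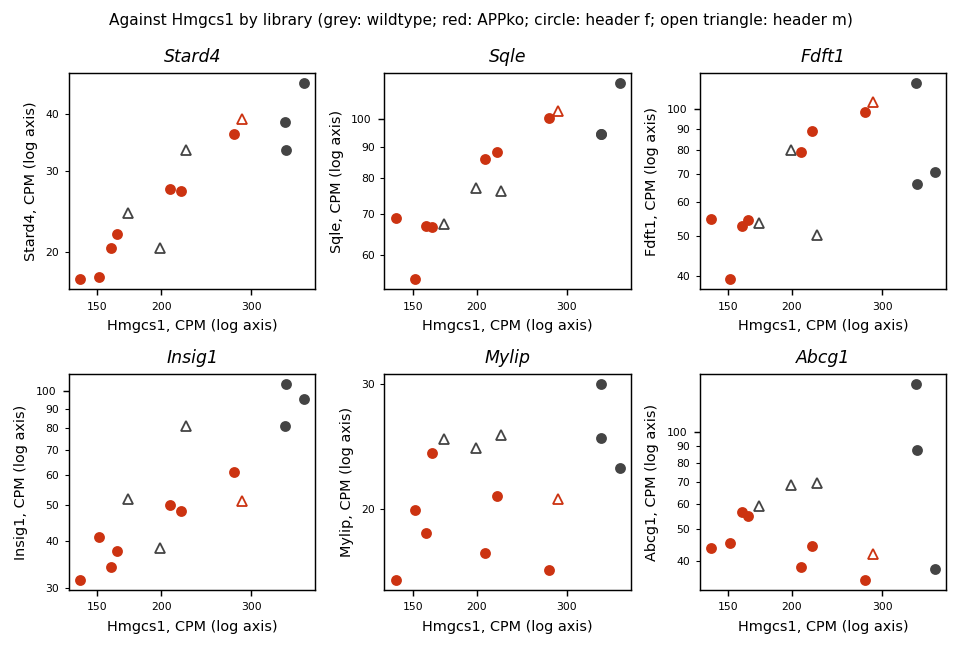
Level of 6 genes against Hmgcs1 in each library, both axes logarithmic in CPM, wildtype grey and APPko red, header f as circles and m as open triangles. Stard4 rises with Hmgcs1 along a narrow line in the 8 APPko libraries (r = 0.99), and Mylip shows no such line (r = -0.0026).

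Of the 5 genes of uptake, transfer and storage, Mylip was lower in APPko and the other 4 did not pass. Mylip encodes IDOL, the ligase that removes the LDL receptor from the cell surface and is induced by the liver X receptors. The gene (ENSMUSG00000038175.10) lies on chromosome 13 from 45389742 to 45412022 (GRCm38). Wildtype libraries ran from 22.9 to 30.0 CPM with a median of 25.2 CPM and APPko libraries from 15.9 to 24 CPM with a median of 19.2 CPM. Of 8 APPko libraries 7 lay below every wildtype library, and 5 of 6 wildtype libraries lay above every APPko library. The means were 25.5 ± 2.40 CPM (SD, n = 6) and 19.2 ± 2.71 CPM (SD, n = 8), a 1.33-fold lower level (log2 change -0.41, SE 0.11, edgeR adjusted p = 0.0499). In f libraries the means were 26 ± 3.7 and 19.0 ± 2.9 CPM, and in m libraries 25.0 ± 0.54 CPM in wildtype and 20.7 CPM in the single APPko library, so the difference had the same direction in both. Without wildtype libraries 2 and 3 the wildtype mean was 24.5 ± 1.2 CPM and the log2 change -0.34. Over the 14 fits that left out 1 library the log2 change ran from -0.45 to -0.36 and passed in 2 (without wildtype library 1 or 4).

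Stard4 ran from 20.4 to 46.7 CPM in wildtype with a median of 33.4 CPM and from 17.5 to 38.9 CPM in APPko with a median of 24.5 CPM (log2 change -0.34, edgeR adjusted p = 0.36). Soat1, which esterifies cholesterol for storage, ran from 55.1 to 78.6 CPM with a median of 58.8 CPM and from 50.2 to 66.8 CPM with a median of 58.4 CPM. The Soat1 medians nearly coincided (log2 change -0.12, 95% interval -0.34 to 0.09). The proteins of Npc1 and Npc2 pass cholesterol out of the lysosome. Npc1 had 20.8 ± 2.40 and 22.1 ± 2.7 CPM (interval -0.14 to 0.31) and Npc2 180 ± 45.1 and 178 ± 20.5 CPM (interval -0.30 to 0.26).

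**Figure D5:**
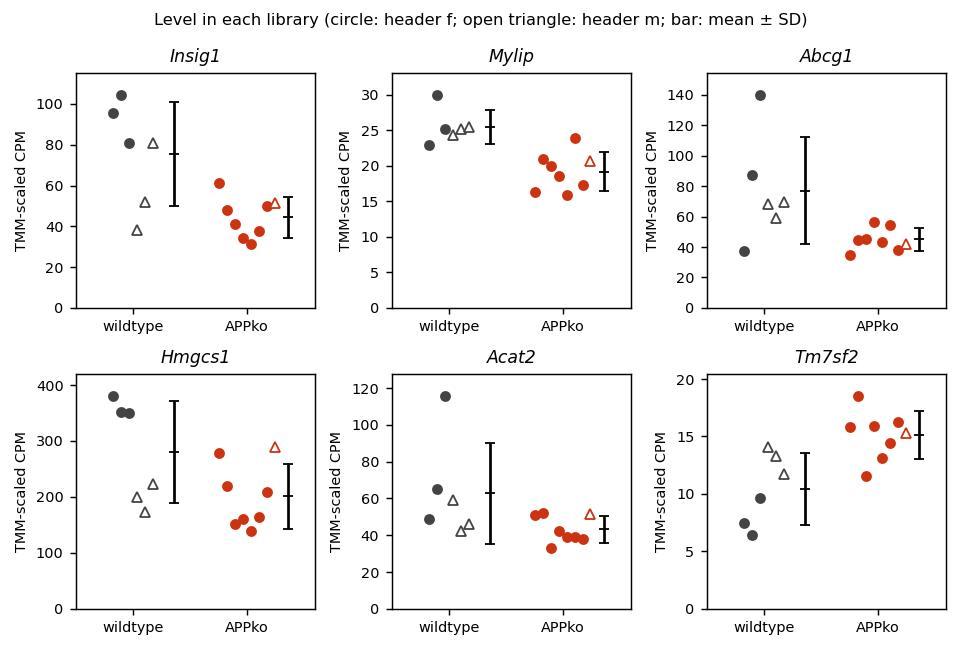
TMM-scaled CPM of 6 genes in each of 6 wildtype and 8 APPko libraries, header f as circles and m as open triangles, with the mean and SD beside each group. For Mylip 7 of 8 APPko libraries lie below every wildtype library, and for Abcg1 the wildtype libraries 2 and 3 are the highest.

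None of the 5 genes of efflux and hydroxylation passed, and they did not share a direction. Abcg1, an exporter of cholesterol to lipoproteins (ENSMUSG00000024030.7, chromosome 17, 31057675 to 31117988, GRCm38), had the largest fitted difference of the 33 genes and lay just outside the threshold. Its lowest, median and highest levels were 37.6, 69.0 and 140 CPM in wildtype and 34.9, 44.0 and 56.6 CPM in APPko. All 8 APPko libraries lay below the wildtype mean, and wildtype library 1 (37.6 CPM) lay among the APPko values. The means were 77.0 ± 35.0 and 45.0 ± 7.46 CPM (1.71-fold lower, log2 change -0.78, SE 0.20, edgeR adjusted p = 0.0504). Wildtype libraries 2 and 3 had 87.6 and 140 CPM. Without both the log2 change was -0.38 (edgeR adjusted p = 0.32), and without wildtype library 3 alone -0.50 (edgeR adjusted p = 0.14). The m libraries had 65.6 ± 5.9 CPM in wildtype and 41.9 CPM in the single APPko library.

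Abca1, the exporter to lipid-poor apolipoproteins, had 83.3 ± 10.2 and 73.5 ± 8.13 CPM, with all 8 APPko libraries below the wildtype mean (log2 change -0.18, edgeR adjusted p = 0.32, and -0.08 without wildtype libraries 2 and 3). The receptors that induce both exporters had positive log2 changes, neither of which passed. Nr1h2, the gene of liver X receptor beta, ran from 6.06 to 12.0 CPM in wildtype with a median of 9.21 CPM and from 9.92 to 14 CPM in APPko with a median of 12.4 CPM (log2 change 0.41, edgeR adjusted p = 0.15). Nr1h3, the gene of liver X receptor alpha, ran from 1.56 to 3.41 CPM with a median of 2.37 CPM and from 2.17 to 4.41 CPM with a median of 3.49 CPM (log2 change 0.48, edgeR adjusted p = 0.23). For both receptors every wildtype f library lay below every wildtype m library, and the lowest values were those of wildtype libraries 2 and 3. Without these the wildtype means were 10.5 ± 1.5 CPM for Nr1h2 and 2.80 ± 0.55 CPM for Nr1h3, and the log2 changes were 0.21 and 0.27. Cyp46a1, the neuronal hydroxylase, had 11.1 ± 5.51 and 15.1 ± 3.00 CPM (log2 change 0.44, edgeR adjusted p = 0.37), with 3.03 and 7.46 CPM in wildtype libraries 2 and 3. Without these the wildtype mean of Cyp46a1 was 14.1 ± 3.6 CPM and the log2 change 0.11. Among f libraries the means of Nr1h2, Nr1h3 and Cyp46a1 were higher in APPko. In m libraries the wildtype means were 11.1 ± 1.1 CPM for Nr1h2, 3.01 ± 0.42 CPM for Nr1h3 and 15.5 ± 2.4 CPM for Cyp46a1. The single APPko m library had 9.92, 4.41 and 13.5 CPM, lower for Nr1h2 and Cyp46a1 and higher for Nr1h3.

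The header suffix moved with several of these results. In f libraries alone, 3 wildtype against 7 APPko, 10 of the 33 genes passed, where 15.6% of tested genes did. Tm7sf2, Nr1h2 and Cyp46a1 were higher and Insig1, Acat2, Hmgcs1, Lss, Mylip, Stard4 and Abcg1 lower. With the suffix as a covariate over all libraries 5 of 33 passed (Tm7sf2 and Nr1h3 higher, Insig1, Mylip and Abcg1 lower), where 6.53% of tested genes did. Without wildtype libraries 2 and 3 none passed, and 35 genes passed over the whole transcriptome.

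Neighbouring pathways gave 1 call, where 2.35% of all tested genes passed. None of 18 genes of fatty acid synthesis and desaturation, of which several share SREBP control, passed, and their median log2 change was 0.014 (smallest p Elovl1, log2 change 0.57, edgeR adjusted p = 0.098). None of 15 genes of the isoprenoid branch and prenylation passed (median -0.00015, smallest p Icmt, log2 change 0.45). None of 14 genes of SREBP processing, sterol-regulated degradation and electron supply passed (median -0.019, smallest p Rnf145, log2 change -0.27). Of 31 tested genes of sterol transport, storage and oxidation outside the 33, 1 rose: Apoc1, a small apolipoprotein, went from 12.8 ± 3.81 to 29.8 ± 9.81 CPM (log2 change 1.22, edgeR adjusted p = 0.018). Whether the call of Apoc1 holds without wildtype libraries 2 and 3 is not given here. The remaining 2 listed genes, Soat2 and Hsd3b7, did not pass the expression filter. In this last list 21 log2 changes were positive and 10 negative. An unadjusted edgeR p under 0.05 was found for 1 of 18, 5 of 15, 2 of 14 and 13 of 31 genes of the lists in this order. The share over all tested genes was 20.4%.

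Cell type markers moved beside these genes. All markers were detected in every library. Over all tested genes 1.41% fell and 0.944% rose at the same threshold. Of 9 granule cell markers 4 fell (Rfx3, Npy1r, C1ql3 and Ntng1), with 1 log2 change positive and 8 negative. Their summed level ran from 666 to 1286 CPM in wildtype and from 497 to 861 CPM in APPko. Of 10 microglia markers Tyrobp and C1qb rose, while 7 log2 changes were positive and 3 negative, the lowest -0.26. The microglia sums ran from 476 to 911 and from 658 to 1156 CPM. Of 10 astrocyte markers Atp1b2 and Ntsr2 rose, while 6 log2 changes were positive and 4 negative, the lowest -0.62. The astrocyte sums ran from 6345 to 8690 and from 5661 to 8505 CPM. No oligodendrocyte marker of 10 and no precursor marker of 6 passed, with oligodendrocyte sums from 589 to 1610 and from 649 to 1104 CPM and precursor sums from 95 to 145 and from 83.3 to 144 CPM. None of 6 pan-neuronal markers passed, but all 6 log2 changes were negative, with a median of -0.25 (sums 3304 to 5769 and 3241 to 4278 CPM). Col4a2 of 6 vascular markers rose, with 5 log2 changes positive and 1 negative (sums 29.4 to 45.3 and 38.5 to 65.9 CPM). Serpinf1 of 5 meningeal markers rose, with 4 log2 changes positive and 1 negative (sums 73.9 to 130 and 121 to 183 CPM). Serpinf1 itself went from 52.7 ± 9.58 to 103 ± 22.3 CPM, and the median log2 change of the 5 was 0.017. The part of these cell types in the changes of Insig1 and Mylip was not tested.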

How the data were processed

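The authors deposited unnormalised read counts by gene symbol for each of 14 libraries. The submitters' processing notes name GRCm38 (mm10) and list featureCounts 2.0.1, STAR 2.7.8a and cutadapt 3.5. Per the labels' protocols, cDNA received 12 and libraries 10 cycles of PCR, and reads were 151 bp pairs. The sources used here give neither the strand setting nor how multi-mapping reads were treated. Positions and exon lengths came from the deposited GENCODE M25 annotation.

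Genes were filtered by edgeR's filterByExpr (22150 kept), scaled by TMM and compared with edgeR's robust quasi-likelihood test over all genes, without covariates, with Benjamini-Hochberg adjustment and a threshold of 0.05. The procedure was tested on simulated data. CPM are TMM-scaled. R 4.3.3, edgeR 4.0.16, limma 3.58.1 and DESeq2 1.42.0 were used. Depth is the total count per library. Alternatives were other scalings, DESeq2, voom with quality weights, other filters, a replicate block, the header suffix, a GC trend (lowess span 0.3) and libraries left out.

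The members, lists and alternatives were chosen with earlier results of these data known. Every member is reported, with library ranges for those past the threshold and the 3 with the smallest p of each role. Of a related list the called genes, or else the gene with the smallest p, are named, and of a marker list the called genes. Within each genotype, every pair of libraries differed by more than counting error (smallest chi-square per degree of freedom 8.78 over 43 pairs).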

Additional observations from a re-analysis of the deposited data

Results flagged for a closer look

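The level of Acat2 in wildtype library 3 (116 CPM) lay far above the other 5 wildtype libraries (42.2 to 65.1 CPM). The level of Mylip in wildtype library 2 (30.0 CPM) lay above the other 5 (22.9 to 25.5 CPM). Each gap exceeded Dixon's critical value, and among 66 groups examined (33 genes in 2 genotypes) chance marks about 1 in 20.

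The genotype difference of Hmgcs1 differed between f and m libraries by 1.48 on the log2 scale (edgeR interaction, adjusted p = 0.036). The APPko m arm is 1 library, whose spread is assumed to be that of the other groups, so this p gives no check by replicates of that arm. 7 of 7 APPko f libraries lay below every wildtype f library, and the single APPko m library lay above the 3 wildtype m libraries.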

How the results depend on the processing

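The count of all called genes (521 of 22150 tested) was 1707 of 16078 with DESeq2 and 1446 of 22150 with the header suffix as a covariate. It was 3672 of 23580 in f libraries alone, 35 of 23764 without wildtype libraries 2 and 3 and 223 of 22150 with the GC trend removed. Of 22150 tested genes, RLE scaling called 543, upper-quartile scaling 488, total counts only 355 and voom 350. A filter of 1 CPM gave a count of 715 of 17372, and no filter on low counts 474 of 49361. Over fits without 1 library the count ran from 38 (without APPko library 5) to 1436 (without wildtype library 4). Of the 33 genes, 2 were called lower and 0 higher. The count lower was 1 with upper-quartile scaling (Insig1) and 0 with total counts only, voom, no filter on low counts, the GC trend removed and without wildtype libraries 2 and 3. It was 3 with RLE scaling, DESeq2, the suffix as a covariate and a filter of 1 CPM, where Abcg1 made 1 efflux gene lower. In f libraries alone 7 were lower (mevalonate steps 2, sterol steps 1, uptake 2, efflux 1, sensing 1). The count higher was 1 with DESeq2 (sterol steps), 2 with the suffix (sterol steps 1, efflux 1) and 3 in f libraries alone (sterol steps 1, efflux 2). Without 1 library 0 to 3 were lower and 0 to 1 higher, by role 0 to 1 lower in sensing, uptake and efflux and 0 to 1 higher in the sterol steps. The causes were not tested. Total counts alone moved the median of all genes to 0.079.

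Insig1, Mylip, Abcg1, Acat2, Hmgcs1, Stard4 and Tm7sf2 kept their sign in every alternative. Genes near 0 changed sign, none of them called in either fit. Without wildtype libraries 2 and 3 these were Srebf1 (-0.039), Srebf2 (-0.042), Insig2 (0.097), Mvk (-0.12), Idi1 (0.31), Fdft1 (0.17), Cyp51 (0.068), Msmo1 (0.065), Dhcr7 (-0.061) and Npc2 (0.22). With the GC trend removed they were Srebf1 (-0.12), Srebf2 (-0.20), Scap (-0.014), Mvk (-0.24) and Dhcr7 (-0.016), and in f libraries alone Srebf2 (-0.077), Fdps (0.089), Nsdhl (-0.019), Ebp (-0.20) and Sc5d (-0.18). With voom they were Insig2 (0.027), Mvk (-0.075), Idi1 (0.13), Fdft1 (0.080), Cyp51 (0.012), Msmo1 (0.00068) and Npc2 (0.099), and with total counts Fdps (0.049), Fdft1 (0.081), Cyp51 (0.0082) and Npc2 (0.099). Without the filter they were Fdps (0.00036), Fdft1 (0.014) and Npc2 (0.021), with the suffix Fdps (0.0060) and Sc5d (-0.0024), with RLE Sc5d (-0.0017), with DESeq2 Sc5d (-0.0031) and with upper-quartile scaling Npc2 (0.0045). Without 1 library the ranges that crossed 0 were Srebf2 (-0.058 to 0.18), Insig2 (-0.21 to 0.017), Mvk (-0.059 to 0.091), Idi1 (-0.30 to 0.064), Fdps (-0.11 to 0.053), Fdft1 (-0.12 to 0.17), Ebp (-0.010 to 0.22), Sc5d (-0.047 to 0.13) and Npc2 (-0.077 to 0.13).

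The replicate block used libraries numbered 1 to 6 in both genotypes, which share only a number. Same-numbered libraries had correlations of their deviations from -0.35 to 0.30, and not every library matched best with its own number. With the replicate block 20 genes and 0 of the 33 were called, and without the block on the same 12 libraries, a fit added after the data were seen, 27 and 0. Signs changed for Mvk (-0.0060 with the block, -0.0092 without), Sc5d (-0.038 and -0.049) and, with the block, Npc2 (0.019).

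At 26 to 58 counts per library the depth limits Fdps and at 34 to 119 counts Nr1h3.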
